A study of Mus musculus with 14 samples.

Results

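Glucocorticoid signalling was read here through 8 genes: the receptor Nr3c1, the enzymes Hsd11b1 and H6pd that make its ligand inside the fat cell, and the targets Fkbp5, Tsc22d3, Sgk1, Mt1 and Mt2. Every probe set annotated to one of these genes was taken, which gave 14 probe sets of 22690 on the Affymetrix mouse array, with 4 of the 8 genes measured by more than 1. The question was whether the receptor, its supply of ligand or its targets differed in the fat of mice that were underfed before or after birth. The 14 ICR mice were 3 weeks old and labelled male, no transgene or drug is named in the labels, and RNA was taken from their epididymal fat, a white adipose tissue. In the CC group (n = 5) the dams ate ad libitum through pregnancy and suckling. The UC group (n = 5) met a 50% global cut in the dam's food in utero and then ad libitum feeding while nursing. The UU group (n = 4) met the 50% cut both in utero and while nursing. UC and UU therefore shared the prenatal restriction and differed in feeding during suckling. Values are the deposited MAS5 signals, which are linear and scaled to a common trimmed mean. Differences are on the scale log2(signal + 32) with the standard error of limma, a linear model fitted to all 14 arrays, and a probe set or gene was called at a Benjamini-Hochberg adjusted p under 0.05. Litters are not given, so each array counts as an independent animal in the tests, and the number of arrays limits the precision.

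Corticosterone, the main glucocorticoid of mice, crosses the cell membrane and binds the glucocorticoid receptor, which then leaves its chaperones, enters the nucleus and binds DNA at glucocorticoid response elements. In fat the enzyme 11β-hydroxysteroid dehydrogenase type 1 regenerates the active hormone from its inert keto form, so tissue exposure can differ from the level in blood. Glucocorticoids promote fat cell differentiation, alter lipid storage and lipolysis, and induce genes that damp inflammation or restrain the receptor itself.

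No member was called in the test across all features. With 13 of the 14 probe sets above the signal filter, 0 were called in any of the 3 comparisons. The background was 0% of 13575 probe sets for UC against CC, 0% for UU against CC and 0.427% for UC against UU. At an unadjusted p under 0.05 the members numbered 1, 2 and 2 of 13 in the same order, against 9.22%, 16.1% and 16.1% of all probe sets. Among all 13575 the signals of the groups did not overlap for 1.84%, 7.79% and 5.43%, and among the members for 0, 0 and 1. The 3 comparisons share arrays, UC against CC and UU against CC having the CC mice in common. Medians of the members' log2 differences were -0.16, -0.12 and -0.23, and those of all probe sets were -0.02, 0.04 and -0.07. The member with the smallest adjusted p was Hsd11b1 in UC against UU (adjusted p = 0.211 by limma), followed by H6pd in UU against CC (adjusted p = 0.256 by limma). An exact permutation test of single probe sets gave an unadjusted p under 0.05 for 1, 2 and 1 of the 13 members in the same order of comparisons, against 8.98%, 16.3% and 12.4% of all 13575. The smallest p that 5 against 5 or 5 against 4 arrays allow is 0.00794.

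Several arrays stood apart from their labels or from the rest of their group. Adipocyte markers (8 of 10 listed genes with a probe set) had summed signals of 195549.8 to 337377 in CC, 200521 to 383076 in UC and 133988 to 232411 in UU. Fabp4 and Adipoq were the largest terms of these sums on every array. Lep read 85.6 in UU replicate 1, against 2747 to 15556 on the other arrays. Lipe and Pparg were lowest in UU replicate 3, at 1517 and 1396. Markers of the epididymal epithelium, the duct lining next to this depot, were measured by 5 of 12 listed genes, and their mean log2 level was 7.08 to 7.94 on 4 arrays (CC replicates 2 and 4, UC replicates 2 and 5), against 11.05 to 14.06 in the other 10 arrays. Summed over the 5 genes they spanned 814 to 130023 in CC, 1248 to 115969 in UC and 19885 to 109705 in UU, so all 4 UU arrays were on the high side, and none of the 5 was at 0. All samples carry the label male, yet Xist, the RNA of the inactive X chromosome, read 3981 for CC replicate 2 and 5642 for UC replicate 5, and no more than 1324 on any other array. Liver transcripts (11 of 12 listed genes) summed to 84349 in UC replicate 2 and reached a low of 3582 in the same group, against 1788 to 3859 in CC and 4283 to 6239 in UU. The log2 ratio of 3' over 5' control probe sets, a sign of RNA quality, was 1.63 in UC replicate 1, 1.597 in UC replicate 4 and 2.11 in UU replicate 3, against 0.40 to 1.08 elsewhere. Skeletal muscle markers (8 of 8 listed genes) had a mean log2 level of 11.20 in CC replicate 2 and 11.07 in CC replicate 5, against 7.24 to 8.56 on the other 12 arrays. In whole tissue, fewer cells of a type and less RNA per cell cannot be told apart.

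The start regions of the metallothionein genes and of Sgk1 are shown because Mt1 and Mt2 varied together across arrays and both are metal response genes. That of Sgk1 is shown because 1 of its starts was the sole member window searched that held a full glucocorticoid response element. RefSeq promoter windows (mouse GRCm38.p6, 250 bases before to 50 after each annotated start) were searched for 7 of the 8 genes, in 14 windows. No window of Nr3c1 was searched, so nothing is said of its start regions. Capitals mark the core of the metal response element, searched as TGCACNC or TGCGCNC on both strands, and the full glucocorticoid response element, searched as AGAACA, any 3 bases, then TGTTCT. The 250 bases before each start run 5′ to 3′ on the + strand, at chr8:94172368-94172617 for Mt2, chr8:94178839-94179088 for Mt1 and chr10:21993640-21993889 for start 5 of the 6 Sgk1 starts.
Mt2: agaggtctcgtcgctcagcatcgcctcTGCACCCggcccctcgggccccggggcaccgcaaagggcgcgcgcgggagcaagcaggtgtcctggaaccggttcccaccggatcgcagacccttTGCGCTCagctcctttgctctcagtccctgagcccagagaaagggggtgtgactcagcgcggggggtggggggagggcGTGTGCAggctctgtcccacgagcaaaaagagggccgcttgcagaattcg
Mt1: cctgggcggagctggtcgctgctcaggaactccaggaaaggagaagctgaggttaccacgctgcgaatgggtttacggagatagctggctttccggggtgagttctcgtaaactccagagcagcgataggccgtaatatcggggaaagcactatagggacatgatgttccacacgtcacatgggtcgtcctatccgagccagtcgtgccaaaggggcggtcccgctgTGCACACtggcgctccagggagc
Sgk1: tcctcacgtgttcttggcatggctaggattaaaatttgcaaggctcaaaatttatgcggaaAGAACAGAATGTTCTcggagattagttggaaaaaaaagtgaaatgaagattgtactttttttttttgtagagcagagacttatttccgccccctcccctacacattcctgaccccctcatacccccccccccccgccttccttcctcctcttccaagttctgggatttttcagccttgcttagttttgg
Mt2 held 4 cores in its 300-base window, of which 3 lie in the bases shown, at -223, -128 and -50 from the start, and 1 at +5. Mt1 held 3, of which 1 is shown at -23 and the others begin at +3 and +21. At least 1 core was found in 25.7% of all 32851 mouse windows, at least 3 in 1.97% and at least 4 in 0.517%. Sgk1 held the full glucocorticoid element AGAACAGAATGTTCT at -189 to -175 of this start, which only 3 of 32851 windows (0.00913%) did. The single arm TGTTCT, searched on both strands and counted also within a full element, was in 5 of the 14 windows and in 19.0% of all windows. A match is a description of the letters, and no match in a window says nothing of elements farther away. The starts of Mt2 and Mt1 lie 6471 bases apart.

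Nr3c1 encodes the glucocorticoid receptor. On its brightest probe set, 1421867_at, the signal was 4417, 4585, 5452, 6761 and 5312 in CC replicates 1 to 5, 4002, 6791, 5062, 4829.8 and 6168 in UC replicates 1 to 5, and 6342, 4059, 4073 and 4865 in UU replicates 1 to 4. The 3 groups lay over each other, with means of 5305 ± 928 in CC, 5370.5 ± 1108 in UC and 4835 ± 1073 in UU (± SD). The log2 difference was 0.01 ± 0.18 (SE) for UC against CC, -0.14 ± 0.19 for UU against CC and 0.15 ± 0.19 for UC against UU, with adjusted p of 0.991, 0.728 and 0.719 by limma. The sign of the UC against CC value turned in several alternative settings. On another probe set, 1460303_at, the signal was 4014, 7209, 4862, 4696 and 3961 in CC replicates 1 to 5, 3718, 5816, 4814, 4570.1 and 4373 in UC replicates 1 to 5, and 3764, 4136, 3756 and 3616 in UU replicates 1 to 4. The UU arrays were the most alike of the groups here, and 4 of 5 UC arrays lay above the highest of them, while CC replicate 2 stood above every other array. Its log2 difference was -0.34 ± 0.18 for UU against CC (adjusted p = 0.365 by limma) and 0.27 ± 0.18 for UC against UU (adjusted p = 0.461 by limma). The remaining one, 1421866_at, was the dimmest of the 3, at 923, 641, 854, 1135 and 591 in CC, 348, 1136, 539.7, 412 and 787 in UC and 671, 475, 505 and 856 in UU, with all 3 groups overlapping. Its differences were -0.43 ± 0.30, -0.39 ± 0.31 and -0.05 ± 0.31 in the same order of comparisons. Across the 14 arrays 1421867_at and 1421866_at correlated at r = 0.70, and 1460303_at with either at 0.26 and 0.28, so the 3 did not report 1 pattern. As a description of single values only, the exact permutation p of 1460303_at was 0.0556 for UC against UU and 0.0635 for UU against CC. Without the 2 arrays with Xist its differences were 0.29 for UC against UU and -0.19 for UU against CC. They were 0.19 and -0.16 without the 4 arrays low in epididymal markers. CC replicate 2 was in both sets of arrays left out.

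Hsd11b1 encodes 11β-hydroxysteroid dehydrogenase type 1, the reductase that regenerates corticosterone. Its probe set 1449038_at read 2105, 1982, 2923, 3169 and 2286 in CC replicates 1 to 5, 3674, 5363, 1313, 6734 and 2655 in UC replicates 1 to 5, and 1176, 2177, 1856 and 1808 in UU replicates 1 to 4. UC was the widest group, holding both the 3 highest arrays of the study and the second lowest, and UU lay low, with 3 of 4 arrays below every CC array. Means were 2493 ± 524 in CC, 3948 ± 2148 in UC and 1754 ± 419 in UU (± SD). The log2 difference of UC against UU was 0.98 ± 0.36 (SE), a fold of 1.98, with 4 of 5 UC arrays above the highest UU array. Its adjusted p was 0.211 by limma over probe sets and 0.186 over genes, and the exact permutation p was 0.0873. The test turned on UC replicate 3, at 1313. Without it the difference was 1.32, with an adjusted p of 0.0379 by limma, the only call of a member in any alternative run. Against CC, UC was 0.47 ± 0.34 and UU -0.51 ± 0.36, with adjusted p of 0.655 and 0.486 by limma. The first ran from 0.23 without UC replicate 4 to 0.81 without UC replicate 3, and the second was -0.33 without UU replicate 1. The exact permutation p of UU against CC was 0.0476. Liver, where this enzyme is abundant, gave the strongest marker signal in UC replicate 2 (Alb 25660, Hsd11b1 5363). With the liver marker level as a covariate the UC against CC difference was -0.04 and the UC against UU difference 0.71. The UU against CC difference was then -0.75 (adjusted p = 0.278 by limma). The highest Hsd11b1 signal, 6734, was in UC replicate 4, where the 3' over 5' log2 ratio was 1.597. Alb was at 3191 on that array, the second highest Alb of the 14. The mean log2 liver level was highest in UC replicates 2, 4 and 1, at 12.03, 9.415 and 8.96. These arrays also held the 3 highest Hsd11b1 signals. Over the 14 arrays Hsd11b1 correlated with the liver level at r = 0.55, as a description. The liver level was 8.16 to 8.54 in UU and 7.16 to 8.08 in CC, where mean Hsd11b1 was 1754 and 2493. The part of liver RNA in the Hsd11b1 values was not tested. With the 3' over 5' log2 ratio as a covariate UC against UU was 0.96 (adjusted p = 0.161 by limma), UC against CC 0.29 and UU against CC -0.67.

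H6pd encodes hexose-6-phosphate dehydrogenase, which supplies the NADPH that lets 11β-hydroxysteroid dehydrogenase type 1 run as a reductase. Its probe set 1452145_at read 4111, 3953, 4436, 5633 and 3444 in CC replicates 1 to 5, 3270.1, 4598, 2636, 3929 and 3470.3 in UC replicates 1 to 5, and 2464, 3145, 2986 and 3883 in UU replicates 1 to 4. CC held the highest array and UU the lowest, and 3 of 4 UU arrays lay below every CC array. In order of the means, the groups stood at 4316 ± 819 in CC, 3581 ± 734 in UC and 3119 ± 586 in UU (± SD). The UU against CC difference was -0.46 ± 0.19 (SE), a fold of 0.725, with an adjusted p of 0.256 by limma and an exact permutation p of 0.0397. UC against CC was -0.27 ± 0.18 and UC against UU 0.19 ± 0.19, neither of which passed (adjusted p = 0.635 and 0.632 by limma). Adipocyte and macrophage markers were also lower in UU, with mean log2 adipocyte levels of 14.06 ± 0.39 in CC, 14.14 ± 0.42 in UC and 13.16 ± 0.45 in UU (SD). The macrophage level (10 of 10 genes) was 12.28 ± 0.57, 12.28 ± 0.58 and 11.10 ± 0.46 in the same order. Endothelial markers (8 of 8 genes) were at 10.81 ± 0.33, 10.58 ± 0.37 and 10.12 ± 0.25, and summed to 13053 to 21716 in CC, 11766 to 17686 in UC and 9059 to 12103 in UU, below every CC array. Over the 14 arrays H6pd tracked the adipocyte level at r = 0.71 the macrophage level at r = 0.68 and the endothelial level at r = 0.61, and Hsd11b1 the first 2 at 0.60 and 0.56, values that share array and scaling and carry no test. Their part in the UU values was not tested.

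Fkbp5 encodes FKBP51, a co-chaperone that lowers the receptor's affinity for hormone and is itself induced by the receptor. On the brighter probe set, 1416125_at, the signal was 4524, 703, 4978, 3565 and 5104 in CC replicates 1 to 5, 4175, 2948, 3570.0, 2600.3 and 1474 in UC replicates 1 to 5, and 3866, 4441, 3384 and 5741 in UU replicates 1 to 4. CC replicate 2 was far below the other 4 CC arrays, and it is also 1 of the 2 arrays with Xist and low in epididymal markers. The 4 arrays low in those markers read 703 to 3565 here and the other 10 read 2600.3 to 5741, so the ranges overlapped. Means were 3775 ± 1820.4 in CC, 2954 ± 1023 in UC and 4358 ± 1018 in UU (± SD), and the log2 differences were -0.16 ± 0.44 (SE), 0.45 ± 0.47 and -0.61 ± 0.47 for UC against CC, UU against CC and UC against UU. Adjusted p was 0.927, 0.639 and 0.527 by limma. Without the 2 arrays with Xist the first became -0.46 and the second -0.07. Leaving out the 4 arrays low in epididymal markers gave -0.52, -0.19 and -0.33, and a fit with the level of those markers as a term gave -0.042, 0.21 and -0.25, in the same order. Over the 14 arrays this probe set correlated with the level of epididymal markers at r = 0.71 and with the macrophage level at r = -0.63, as a description. On the dimmer probe set, 1448231_at, the signal was 1626, 898, 1895, 2020.2 and 2348 in CC replicates 1 to 5, 1078, 963, 1272, 1010.4 and 968 in UC replicates 1 to 5, and 1302, 1627, 1289 and 1885 in UU replicates 1 to 4. All 5 UC arrays lay below all 4 UU arrays, and below 4 of 5 CC arrays, and they were the tightest group. Means were 1758 ± 546 in CC, 1058 ± 128.1 in UC and 1526 ± 286 in UU (± SD). UC against CC was -0.66 ± 0.22, a fold of 0.635, with an adjusted p of 0.486 by limma, an unadjusted p of 0.00847 and an exact permutation p of 0.0476. UC against UU was -0.51 ± 0.23, a fold of 0.705, with an adjusted p of 0.297 by limma and an exact permutation p of 0.0159. This was the single member whose groups did not overlap, beside 5.43% of all probe sets in that comparison. Without the 2 arrays with Xist the means were 1972 ± 299 in CC (n = 4), 1081 ± 136 in UC (n = 4) and 1526 ± 286 in UU, and the differences were -0.845 and -0.475. With the 4 arrays low in epididymal markers left out they were -0.78 and -0.42, and no setting turned their sign. Across arrays the 2 probe sets correlated at r = 0.72.

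Tsc22d3 encodes GILZ, a leucine zipper protein that is a direct receptor target and opposes inflammatory and adipogenic signalling. On 1420772_a_at the signal was 3691, 2662, 4526, 3713 and 5043 in CC replicates 1 to 5, 3666, 4844, 4398, 3134 and 3583 in UC replicates 1 to 5, and 5022, 5353, 3047 and 5879 in UU replicates 1 to 4. Of the UU arrays 3 lay above all UC arrays, and UU replicate 3, the array of highest 3' over 5' ratio, was the second lowest of the 14. The log2 differences were 0.01 ± 0.21 (SE) for UC against CC, 0.28 ± 0.22 for UU against CC and -0.27 ± 0.22 for UC against UU, with adjusted p of 0.989, 0.522 and 0.549 by limma. The probe set 1425281_a_at gave 2528, 1272, 2494, 3603 and 2779 in CC, 2011, 2888, 2746, 1985 and 1988 in UC and 3365, 3502, 1729 and 3608 in UU. CC replicate 2 and UU replicate 3 were the 2 lowest arrays on it. It gave differences of -0.07 ± 0.26, 0.28 ± 0.28 and -0.35 ± 0.28. These 2 probe sets agreed across arrays at r = 0.85. The other, 1425557_x_at, whose suffix marks probes that can match other transcripts, correlated with them at -0.19 and -0.07. It read 1222, 1395, 562, 1558 and 1125 in CC, 2113, 1178, 1368, 1577 and 1703 in UC and 2330.1, 1219, 1847 and 1715 in UU. On that probe set CC had the lowest array and the lowest mean, and UU against CC was 0.63 ± 0.27, with an adjusted p of 0.274 by limma and an exact permutation p of 0.0873. The 3 probe sets put UU above CC in mean, with none called. With the 3' over 5' log2 ratio as a covariate, UU against CC was 0.54 on 1420772_a_at and 0.61 on 1425281_a_at. Neither passed (adjusted p = 0.344 over genes and 0.375 over probe sets by limma). Without the 4 arrays low in epididymal markers the same differences were 0.095 and 0.17.

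Sgk1 encodes a serum- and glucocorticoid-induced kinase that regulates ion transporters and FOXO factors, and its start 5 carries the full element printed above. Its probe set 1416041_at read 2342, 3926, 5476, 4933 and 2675 in CC replicates 1 to 5, 4777, 2666, 2782, 2410.1 and 2353 in UC replicates 1 to 5, and 5759, 3192, 2684 and 2659 in UU replicates 1 to 4. Each group held 1 to 3 arrays at 3926 or more and the rest between 2342 and 3192, with CC holding 3 of the high ones. Means were 3870.3 ± 1367 in CC, 2998 ± 1010.2 in UC and 3573 ± 1478 in UU (± SD). The log2 differences were -0.34 ± 0.28 (SE), -0.12 ± 0.29 and -0.23 ± 0.29 for UC against CC, UU against CC and UC against UU, with adjusted p of 0.702, 0.862 and 0.729 by limma. UC replicate 1 and UU replicate 1 stood well above the rest of their groups. Without UC replicate 1 the UC against UU difference was -0.41, and without UU replicate 1 the UU against CC difference was -0.37 and the UC against UU difference turned to 0.03.

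Mt1 and Mt2 encode metallothioneins, small cysteine-rich proteins that bind zinc and copper and are induced by metals and by glucocorticoids. On 1422557_s_at the Mt1 signal was 7134, 4213, 4853, 7121 and 7502 in CC replicates 1 to 5, 7712, 2909.8, 4130.5, 6409 and 3402 in UC replicates 1 to 5, and 6051, 5678, 5493 and 7031 in UU replicates 1 to 4. UC held the highest array and the 2 lowest, and the UU arrays were the tightest group. Means were 6165 ± 1514 in CC, 4913 ± 2061 in UC and 6063 ± 686 in UU (± SD), and the log2 differences were -0.39 ± 0.25 (SE), 0.01 ± 0.27 and -0.39 ± 0.27, with adjusted p of 0.631, 0.993 and 0.468 by limma. The other Mt1 probe set, 1451612_at, fell below the signal filter, at 255, 224, 527, 289.8 and 449.9 in CC, 320.1, 197, 254, 177 and 425 in UC and 486, 70.1, 368 and 438 in UU. It was tested in a fit without a filter only, where its differences were -0.31 ± 0.42, -0.20 ± 0.45 and -0.10 ± 0.45, and it correlated with the first at r = 0.13. Mt2 on 1428942_at read 15874, 5511, 10371, 6900.1 and 15034 in CC replicates 1 to 5, 12122, 3281, 9792, 8893 and 2121 in UC replicates 1 to 5, and 11822, 13989, 9049.6 and 10841 in UU replicates 1 to 4. The 4 lowest of the 14 values, 2121, 3281, 5511 and 6900.1, were those of the 4 arrays low in epididymal markers, and the other 10 arrays lay between 8893 and 15874. Over the 14 arrays Mt2 correlated with the level of those markers at r = 0.83, as a description. Means were 10738 ± 4664 in CC, 7242 ± 4329 in UC and 11425 ± 2059 in UU (± SD). UC against UU was -0.92 ± 0.45 (SE), a fold of 0.528, and UC against CC -0.73 ± 0.43, with adjusted p of 0.329 and 0.6 by limma. Without the 4 low arrays the means were 13759.6 ± 2964 in CC (n = 3), 10269 ± 1666 in UC (n = 3) and 11425 ± 2059 in UU, and the differences were -0.15 and -0.41. With the level of epididymal markers in the model they were -0.49 and -0.59. Without UC replicate 5, the lowest array, they were -0.55 and -0.36.

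The members were also compared with each other across the 14 arrays, as 28 pairs of brightest probe sets with permutation tests of 100000 resamples and Benjamini-Hochberg adjustment over the 28. For Mt1 the brightest was 1422557_s_at. The dim 1451612_at, which correlated with it at r = 0.13, was not compared with Mt2. Whether the probes of 1422557_s_at also read Mt2 was not tested. Mt1 and Mt2 correlated at r = 0.79 (permutation p = 0.00132, adjusted p = 0.037) and rho = 0.70 (permutation p = 0.00667, adjusted p = 0.0623). Without the 2 arrays farthest from the median r was 0.49, and within the 10 arrays rich in epididymal markers it was 0.52 (permutation p = 0.122, adjusted p = 0.788). It was 0.72 without the 2 arrays with Xist (n = 12, no test), and 0.74 after centring on group means (permutation p = 0.00301, adjusted p = 0.0421). Fkbp5 and Tsc22d3, both direct receptor targets, correlated at r = 0.70 (permutation p = 0.00281, adjusted p = 0.0393) and rho = 0.74 (permutation p = 0.00367, adjusted p = 0.0514). Here r was 0.60 without the 2 farthest arrays, and 0.74 within the 10 (permutation p = 0.0146, adjusted p = 0.408). It was 0.60 without the 2 arrays with Xist (n = 12, no test), and 0.66 after centring on group means (permutation p = 0.00971, adjusted p = 0.068). Fkbp5 and Mt2 gave r = 0.67 (permutation p = 0.0166, adjusted p = 0.143) and rho = 0.82 (permutation p = 0.00056, adjusted p = 0.0157), with r = 0.63 without the 2 farthest and 0.58 within the 10 (permutation p = 0.0739, adjusted p = 0.689). After centring on group means r for this pair was 0.66 (permutation p = 0.00873, adjusted p = 0.068). Hsd11b1 and H6pd, partners in hormone activation, gave r = 0.61 (permutation p = 0.0204, adjusted p = 0.143) and rho = 0.60 (permutation p = 0.0256, adjusted p = 0.179). Their r was 0.66 without the 2 farthest and 0.61 within the 10 (permutation p = 0.0559, adjusted p = 0.689), and 0.75 after centring on group means (permutation p = 0.00149, adjusted p = 0.0417). By r 2 of the 28 pairs passed an adjusted p under 0.05, by rho 1, and within the 10 arrays 0. The smallest adjusted p within the 10 was 0.408. By r after centring on group means 2 were under 0.05 (Mt1 with Mt2 and Hsd11b1 with H6pd). The test after centring shuffled values over all 14 arrays and made no allowance for the group means already subtracted. Its p-values are therefore too small, and they cannot decide whether either pair passes after centring. The 4 arrays low in epididymal markers were too few for a value of their own.

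The genes most alike to each member over the 14 arrays, by r of log2(signal + 32) among 7436 tested genes, are given with r over the 10 arrays rich in epididymal markers in brackets. For Nr3c1 they were Slc25a3 at 0.87 (0.90), Msra at 0.84 (0.72) and Gpcpd1 at 0.83 (0.75). For Hsd11b1 they were Ehd1 at 0.89 (0.89), Bscl2 at 0.89 (0.89) and Ctsc at 0.88 (0.89). H6pd was closest to Irak1bp1 at 0.90 (0.88), Lmo1 at 0.88 (0.78) and Steap4 at 0.86 (0.84). Bscl2 encodes seipin, a lipid droplet protein, and Steap4 a metalloreductase of adipocytes. Fkbp5 was closest to Cldn2 at 0.92 (0.38), Dnaja4 at 0.91 (0.68) and Ap1m2 at 0.90 (0.80). Tsc22d3 was closest to Ctbp1 at 0.86 (0.90), Rnf5 at 0.83 (0.88) and Mlxip at 0.83 (0.81). Cldn2 encodes a claudin of epithelial tight junctions and Ap1m2 an adaptor subunit of epithelial cells. Sgk1 was closest to Scarb2 at 0.79 (0.86), Stambp at 0.78 (0.71) and Zyg11b at 0.78 (0.77). The partners of Mt1 were Dap3 at 0.84 (0.62), Slc6a8 at 0.84 (0.77) and Fmo2 at 0.81 (0.39). Those of Mt2 were Itm2c at 0.95 (0.77), Gstm6 at 0.94 (0.72) and Epcam, an epithelial adhesion molecule, at 0.94 (0.70). The r of Cldn2 with Fkbp5 and of Fmo2 with Mt1 was 0.38 and 0.39 within the 10 arrays. The partners of Nr3c1, Hsd11b1, H6pd, Tsc22d3 and Sgk1 were at 0.71 or more there. The partners were picked by r over the 14 arrays, and these include the 10. A high r within the 10 is therefore partly built in and cannot decide whether a likeness holds apart from epididymal markers.

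The rest of the pathway was described from 4 lists, tested per gene, where the background of called genes among 7436 was 0% for UC against CC, 0% for UU against CC and 0.807% (60 genes) for UC against UU. At an unadjusted p under 0.05 the shares of all genes were 8.75%, 16.4% and 17.9%, and the medians over all genes were -0.0032, 0.05 and -0.06. Chaperones and coregulators of the receptor (24 genes, 15 tested) had 0 called in any comparison. Their medians were 0.08, 0.23 and 0.01, and their counts at p under 0.05 were 1 higher in UC against CC, 2 higher and 1 lower in UU against CC, and 1 higher and 1 lower in UC against UU. Hspa8, the constitutive HSC70, averaged 36059 ± 3596 in CC, 47358 ± 3856 in UC and 46687 ± 6896 in UU (SD), with differences of 0.39 for UC and 0.37 for UU against CC (adjusted p = 0.518 and 0.224 by limma). Hspa4, a nucleotide exchange factor of that chaperone, was 0.34 in UC against CC and 0.46 in UC against UU (adjusted p = 0.63 and 0.245 by limma). The co-chaperones St13, at -0.62 in UU against CC, and Stip1, at -0.62 in UC against UU, had adjusted p of 0.236 and 0.198 by limma.

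Supply and clearance of the hormone (17 genes, 13 on the array, 6 tested) had 0 called, with medians of 0.12, 0.05 and 0.03 and 1 gene at p under 0.05, Cyp3a11. That gene, a steroid-clearing cytochrome P450 of liver, ranged from 451 to 8654 in UC, against 327 to 477 in CC and 624 to 1117 in UU. Against CC it was 1.85 in UC and 0.85 in UU, and UC exceeded UU by 0.998 (adjusted p = 0.47, 0.459 and 0.374 by limma). Slc37a4, the glucose-6-phosphate transporter that feeds H6pd, was -0.34 in UC against CC (adjusted p = 0.746 by limma). Cyp21a1, a steroid hydroxylase of the adrenal, was 0.58 in UU against CC, and Hsd11b2, the enzyme that inactivates corticosterone, 0.26 in UC against UU (adjusted p = 0.345 and 0.562 by limma). Metal response and zinc transport genes (18 genes, 13 tested) had 0 called, with medians of -0.04, 0.11 and -0.32, and 3 of 13 above 0 in UC against UU beside 43.3% of all genes. Mtf1, the factor that binds the metal response element, was at 1035 ± 158 in CC, 1251 ± 287 in UC and 1546 ± 169 in UU (SD), and 0.57 higher in UU than CC (adjusted p = 0.166 by limma). Gclm, a subunit of glutathione synthesis, was 0.56 in UU against CC (adjusted p = 0.22 by limma). The zinc transporters Slc39a1 and Slc39a7 were 0.76 and -0.70 in UC against CC, and 0.67 and -0.55 in UC against UU (adjusted p between 0.225 and 0.518 by limma).

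Other genes known to be induced by glucocorticoids (34 genes, 31 tested) had 1 called. Their medians were -0.09, -0.0010 and -0.07, and at p under 0.05 there were 4 higher and 3 lower in UC against CC, 5 and 4 in UU against CC, and 3 and 5 in UC against UU. Anxa1, annexin A1, an anti-inflammatory mediator of glucocorticoids made by macrophages among other cells, was the gene called. It read 16633, 19387, 21200.3, 20185 and 16385 in CC, 16971, 22883, 19625, 21477 and 23607 in UC, and 9588, 12796, 12069 and 13699 in UU. Every UU array lay below every CC and UC array, beside the 7.79% and 5.43% of all probe sets whose groups did not overlap in these comparisons. Anxa1 was higher in UC than UU by 0.80 ± 0.15 (SE), with an adjusted p of 0.0343 by limma. Against CC, UU was -0.64 ± 0.15 (adjusted p = 0.124 by limma). The call was lost without the 4 arrays low in epididymal markers (0.69, adjusted p = 0.197 by limma), without the 2 with Xist (0.75, adjusted p = 0.0752 by limma) and with the liver covariate (0.79, adjusted p = 0.109 by limma). It was also lost with no filter or with 2 groups fitted (adjusted p = 0.0528 and 0.0964 by limma), and on leaving out CC replicate 1, UC replicate 2, 4 or 5, or UU replicate 1, 2 or 3 (adjusted p from 0.0514 to 0.118 by limma). Over all alternatives the adjusted p ran from 0.0209 to 0.197 with the difference between 0.69 and 0.93. Foxo3, a transcription factor of stress and fasting, went the other way, at -0.79 in UC against UU and 0.74 in UU against CC (adjusted p = 0.0649 and 0.125 by limma). Cdkn1a, the cell cycle inhibitor p21, and Lpin1, a phosphatidate phosphatase of fat storage, had the smallest p in UC against CC, at 1.08 and 0.96 (adjusted p = 0.381 and 0.439 by limma). The macrophage markers given beside H6pd were also low in UU, and their part in the Anxa1 value was not tested.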

How the data were processed

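Single-channel Affymetrix arrays gave 1 measurement for each of 14 mice, grouped by the labels as 5 CC, 5 UC and 4 UU. The deposited values are linear intensity signals. Per the submitters' processing notes the authors used GCOS 1.3 and MAS5. Each array's mean after trimming 2% at each end was 1499.86 to 1499.89. No detection calls, scan dates or litters were used.

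Probe sets were named through the platform annotation, with symbols updated to RefSeq for 20351 and kept for 29, and 64 control probe sets were left out of the tests. Values were taken as log2(value + 32), and a filter on the mean of the 14 arrays removed the dimmest 40%, which left 13575 probe sets and 7436 genes. The brightest probe set stood for a gene. The 3 groups were fitted together with limma 3.58.1 in R 4.3.3 (eBayes with trend, 11 residual degrees of freedom), each pair of groups was a two-sided contrast, and p-values were adjusted over all features tested. The script was tested on simulated data. Exact permutation tests (two-sided) used the mean log2 value of single probe sets.

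Named are all member probe sets, of each list the genes called and otherwise the 2 of smallest p per comparison, the 3 genes most alike to each member, and markers. The members and lists were chosen with earlier results of these data known. Alternatives covered the pseudocount, filter, scaling, probe set rule, array weights, groups fitted, replicate block, arrays left out and marker covariates.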

Additional observations from a re-analysis of the deposited data

Results flagged for a closer look

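Of 42 groups of 4 or 5 arrays examined, 4 held an array far from the others by Dixon's criterion, where chance flags about 1 in 20. Fkbp5 on 1416125_at was at 702.7 in CC replicate 2, against 3565 to 5104 in the other 4 CC arrays. That array also carried Xist and few epididymal transcripts. Tsc22d3 on 1425281_a_at was at 1729 in UU replicate 3, against 3365 to 3608 in the other UU arrays, and that array had the highest 3' over 5' control ratio. Sgk1 was at 4777 in UC replicate 1, against 2353 to 2782 in the other UC arrays. The dim Mt1 probe set 1451612_at was at 70.1 in UU replicate 2, against 368 to 486 in the other UU arrays.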

How the results depend on the processing

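Over 1113 values of 39 member comparisons under alternative settings, 1055 kept their direction, 57 turned and 1 was called, Hsd11b1 in UC against UU without UC replicate 3 (1.32). In 25 of the 39 no setting turned the sign. Those of Fkbp5 on 1448231_at in UC against CC and UC against UU, H6pd in each comparison and Hsd11b1 in both comparisons with UU were among them. The cause of the turns below was not tested.

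Without the 4 arrays low in epididymal markers, Nr3c1 turned to -0.13 in UC against CC and -0.044 in UC against UU, Fkbp5 to -0.19, Mt1 to -0.08, Mt2 to -0.26 and Sgk1 to 0.058 in UU against CC, Tsc22d3 to -0.24 in UC against CC, and Nr3c1 on 1460303_at to 0.027 in UC against CC. Without the 2 arrays with Xist, Nr3c1 turned to -0.094, Tsc22d3 to -0.088 and Nr3c1 on 1460303_at to 0.10 in UC against CC, and Fkbp5 to -0.074, Mt1 to -0.12 and Mt2 to -0.019 in UU against CC. With the epididymal covariate Nr3c1 turned to -0.024 in UC against CC, and Mt1 to -0.10 and Mt2 to -0.10 in UU against CC. With the liver covariate, UC against CC turned to -0.10 for Nr3c1, -0.041 for Hsd11b1 and -0.14 for Tsc22d3. With the 3'/5' ratio as covariate Fkbp5 turned to 0.08 and Tsc22d3 on 1425281_a_at to 0.32 in UC against CC, and Fkbp5 on 1448231_at to 0.0040 and Mt1 to -0.023 in UU against CC. Median centring turned Mt1 to -0.067 in UU against CC and Nr3c1 on 1421866_at to 0.088 in UC against UU, where quantile normalization gave 0.074. Quantile normalization turned Nr3c1 to -0.018 in UC against CC. The mean of all probe sets gave -0.16 for Nr3c1 in UC against CC and -0.10 for Mt1 in UU against CC. Array weights gave -0.07 for Tsc22d3 and 0.043 for Nr3c1 on 1460303_at in UC against CC, and -0.033 for Mt1 in UU against CC.

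Leaving out single arrays moved UC against CC between -0.081 and 0.11 for Nr3c1, -0.68 and 0.068 for Fkbp5, -0.12 and 0.11 for Tsc22d3, -0.15 and 0.078 for Nr3c1 on 1460303_at, and -0.30 and 0.074 for Tsc22d3 on 1425281_a_at. UU against CC moved between -0.074 and 0.63 for Fkbp5, -0.37 and 0.028 for Sgk1, -0.12 and 0.088 for Mt1, and -0.019 and 0.36 for Mt2. UC against UU moved between -0.41 and 0.027 for Sgk1 and -0.28 and 0.13 for Nr3c1 on 1421866_at.

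Genes called in UC against UU, 60, became 199 at an adjusted p under 0.1, 25 with no filter, 105 with median centring, 9 with 2 groups fitted, 3 without the arrays with Xist, 1 without those low in epididymal markers, 0 with the liver covariate, 115 with the 3'/5' covariate, and 0 (without UC replicate 2 or 4 or UU replicate 1) to 108 (without UC replicate 1) with single arrays left out. Probe sets, 58, became 189, 16, 132, 1, 1, 1, 0 and 151 in the same order, 91 with the dimmest 60% left out, 23 with the epididymal covariate, and 0 (without UC replicate 2, 4 or 5) to 110 (without UC replicate 1) with single arrays left out. In UU against CC, 0 genes became 11 at an adjusted p under 0.1, 1 with no filter, 3 with the dimmest 60% left out, 12 with array weights, 11 with the epididymal covariate, 1 with the 3'/5' covariate, 1 without either set of arrays, and 0 to 3 with single arrays left out. Probe sets there became 23 at 0.1, 29 with array weights, 15 with the epididymal covariate, 1 with the liver covariate, 1 without either set of arrays, and 0 to 9 with single arrays left out. In UC against CC 1 probe set was called without the arrays low in epididymal markers. The 4 exact tests of members under 0.05 became 2 without the arrays with Xist, 0 without those low in epididymal markers, and 1 (without CC replicate 1, 3 or 4) to 6 (without UC replicate 3) with single arrays left out.

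The labels do not say whether the replicate numbers pair the mice, and the main fits did not treat them as pairs. Correlations of same-numbered arrays, as deviations from group means, ran from -0.324 to 0.486, with 6 of 13 above 0.1. Those of CC with UC were 0.42, 0.48 and 0.49 for replicates 1 to 3, and -0.11 and -0.32 for replicates 4 and 5. Arrays of different numbers were not compared, so these values cannot decide whether the mice are paired. With the replicate block, 7 genes and 5 probe sets were called in UU against CC and 94 genes in UC against UU, 0 of them members, and Mt1 in UU against CC turned to -0.0060. Without detection calls or depth, the precision is limited by the number of arrays, and dim probe sets such as Mt1 1451612_at lie near background.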
